A study of Mus musculus with 2 samples.

Results

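The primary (azurophil) granule genes of neutrophils were read from 2 arrays of mouse bone marrow cultures, 1 given silncMDSC and 1 given control siRNA. The set held 6 genes, taken as every probe set whose annotated symbol was Mpo, Elane, Prtn3, Ctsg, Ms4a3 or Gfi1. Each of the 6 had exactly 1 probe set, no probe set was shared with another gene, and together they made up 6 of 45037 probe sets and 6 of 18193 named genes. Both cultures were started from fresh bone marrow cells of C57BL/6 mice, which were transfected with siRNA and then kept for 4 days with GM-CSF and IL6, the cytokines that turn marrow cells into myeloid-derived suppressor cells (MDSCs), which include polymorphonuclear and monocytic forms. The silncMDSC siRNA was aimed at a long non-coding RNA, lncMDSC in the labels and lnc-C/EBPβ in the study. The question was which genes depend on that RNA while MDSCs form. Total RNA of each culture was hybridised to a whole-genome Affymetrix mouse array. No sorting marker is given for these cultures in the sources used here.

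There was 1 array per culture, so no difference has a replicate check, no test was run and no p is given. Each value describes these 2 arrays. Values are probe set intensities on a linear scale. Differences were formed by subtracting log2(intensity + 1) in control siRNA from its value in silncMDSC, so a negative value is lower with silncMDSC. Genes entered the counts if at least 1 of their intensities reached 78.4, the median of all probe sets, called the floor. All 6 members passed it on both arrays, and 11920 genes passed it in all. Intensities of different probe sets cannot be set against each other, so the members are not ranked by level.

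Primary granules are the first granules that a neutrophil precursor makes, at the promyelocyte stage, while the cell still divides. They store myeloperoxidase and a family of serine proteases, and the transcripts for these fade as the cell moves on to make secondary granules. The genes are therefore used as marks of granulocyte-monocyte progenitors and promyelocytes rather than of mature neutrophils, and precursors of monocytes transcribe several of them too. The transcription factors PU.1, MYB, RUNX1 and members of the C/EBP family are known to act on granule enzyme promoters, which is of interest here because the targeted RNA was studied as a partner of C/EBPβ.

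The promoters of the granule enzymes are shown because all 4 enzymes were lower in silncMDSC, with differences from -0.27 (Mpo) to -0.14 (Ctsg). That of Ms4a3 is shown because it was the member farthest from control. Each window is the 250 bases before the annotated start site, from RefSeq on GRCm38.p6, written in the direction of transcription. Windows were found for all 6 members. That of Mpo is chr11:87793534-87793783 on the plus strand, that of Elane chr10:79886062-79886311 on the plus strand, that of Prtn3 chr10:79879417-79879666 on the plus strand, that of Ctsg chr14:56102575-56102824 on the minus strand and that of Ms4a3 chr19:11640852-11641101 on the minus strand. Capitals mark matches, on either strand, to AGGAAGT (PU.1), AACGG (MYB), TTNNGNAA (C/EBP), TGTGGT (RUNX) or AAATCA (GFI1), in which N is any base.
Mpo: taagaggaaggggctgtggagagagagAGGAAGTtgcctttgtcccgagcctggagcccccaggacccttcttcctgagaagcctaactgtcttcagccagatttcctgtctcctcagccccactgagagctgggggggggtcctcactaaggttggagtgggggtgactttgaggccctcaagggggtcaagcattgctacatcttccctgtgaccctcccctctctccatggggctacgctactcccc
Elane: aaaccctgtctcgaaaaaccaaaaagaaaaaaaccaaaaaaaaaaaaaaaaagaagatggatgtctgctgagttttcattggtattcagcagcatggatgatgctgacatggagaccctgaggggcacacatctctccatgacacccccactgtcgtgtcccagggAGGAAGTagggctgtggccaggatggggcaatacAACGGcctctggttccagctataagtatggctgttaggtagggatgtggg
Prtn3: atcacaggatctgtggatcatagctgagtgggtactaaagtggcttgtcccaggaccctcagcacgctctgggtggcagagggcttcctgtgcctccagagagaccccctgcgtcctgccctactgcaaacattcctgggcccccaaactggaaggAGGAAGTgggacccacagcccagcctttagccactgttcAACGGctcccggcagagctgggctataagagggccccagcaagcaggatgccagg
Ctsg: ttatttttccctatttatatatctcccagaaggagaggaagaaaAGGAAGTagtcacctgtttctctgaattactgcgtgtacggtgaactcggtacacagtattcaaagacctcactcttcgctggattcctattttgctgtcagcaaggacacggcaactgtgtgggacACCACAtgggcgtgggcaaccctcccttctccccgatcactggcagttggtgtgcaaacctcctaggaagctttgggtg
Ms4a3: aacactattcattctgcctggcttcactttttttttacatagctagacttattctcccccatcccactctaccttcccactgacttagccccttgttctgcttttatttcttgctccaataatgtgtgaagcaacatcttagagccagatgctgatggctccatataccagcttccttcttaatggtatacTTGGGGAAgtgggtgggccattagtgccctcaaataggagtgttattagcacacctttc

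The PU.1 letters stood in all 4 enzyme promoters and in neither the Ms4a3 window nor the 2 windows of Gfi1. Over all 32851 windows of the same length, 7.69% held them. In Elane they began 84 bases and in Prtn3 94 bases before the start site, against 223 bases in Mpo and 206 bases in Ctsg. The MYB letters were found in Elane and Prtn3, 50 and 55 bases before the start, and in 14.5% of all windows. Elane and Prtn3 lie next to each other on chromosome 10, and their promoters carried the same pair of motifs in the same order. The C/EBP letters were in the Ms4a3 window and in 1 of the 2 Gfi1 windows, and in 36.8% of all windows, and the RUNX letters were in Ctsg (reverse strand) and in 14.0% of all windows. The GFI1 letters were in 0 member windows and in 12.4% of all windows. The motifs were chosen with the windows in view, they do not overlap each other in these windows, and a match is a description of the letters only.

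All 6 members had a lower intensity in the silncMDSC culture, between 67.6% and 90.8% of control. Of all genes above the floor, 50.7% were lower, and of the 1775 genes with a mean intensity of 1000 or more, the range in which 5 of the 6 members lie, 58.0% were. The median difference of the members was -0.22, beside -0.002 for all genes and -0.03 for those brighter genes. Ms4a3, Gfi1 and Mpo were at least 1.2-fold lower, 3 of 6 members, whereas 10.6% of all genes and 8.51% of the brighter ones passed that fold. No member was higher, while 49.3% of all genes were higher and 6.96% at least 1.2-fold higher. No member was 1.5-fold lower (0 of 6, with 1.42% of all genes). In RNA of a whole culture, fewer cells of a type and less RNA per cell cannot be told apart.

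**Figure D1:**
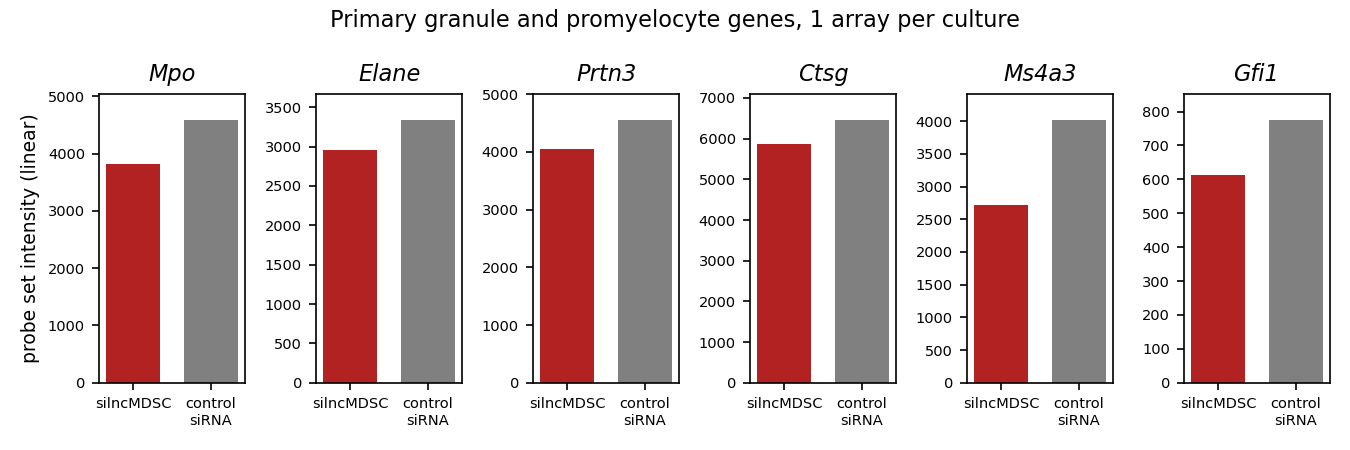
Bars show the probe set intensity (y axis, linear, from 0, with a scale of its own for each gene) of the 6 members on the silncMDSC array (red, left) and the control siRNA array (grey, right), 1 array each and so no error bars. The red bar is the lower of the pair for every gene, and the gap is widest for Ms4a3, at 2718 in silncMDSC and 4022 in control siRNA.

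Among the enzymes, myeloperoxidase differed most from control, by a margin over the serine proteases that 1 array per culture cannot resolve. Mpo, which turns hydrogen peroxide into hypochlorous acid, had an intensity of 3815 in silncMDSC and 4591 in control siRNA. That is 83.1% of control, a difference of -0.27, just past the 1.2-fold mark. Of the 11920 genes, 10.3% were as low or lower in difference, and of the 593 genes whose mean intensity lay within 2-fold of that of Mpo, 5.06% were.

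The serine proteases were closer to control and close to one another. Elane, neutrophil elastase, had 2952 in silncMDSC and 3341 in control siRNA (-0.18). Prtn3, proteinase 3, had 4055 in silncMDSC and 4555 in control siRNA (-0.17). Ctsg, cathepsin G, had 5868 in silncMDSC and 6464 in control siRNA (-0.14). These values were 88.4%, 89.0% and 90.8% of control, so the spread between the 3 proteases was smaller than the distance of any of them from control. Differences of this size were common on the arrays. As low or lower were 18.5% of all genes for Elane, 19.8% for Prtn3 and 23.5% for Ctsg, and within 2-fold of their levels the shares were 17.7% (of 871 genes), 14.9% (of 569) and 18.0% (of 317). The robust SD (scaled median absolute deviation) of the differences of all genes was 0.18.

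Ms4a3, a membrane-spanning protein of the MS4A family that marks granulocyte-monocyte progenitors, was the farthest from control. Its intensity was 2718 in silncMDSC and 4022 in control siRNA, 67.6% of control and a difference of -0.57, or 1.48-fold lower. It ranked 192 from the lowest among 11920 genes (1.61% as low or lower), and among the 796 genes within 2-fold of its level 0.879% were as low. Gfi1, a zinc finger repressor that neutrophil precursors need, had 614 in silncMDSC and 776 in control siRNA, 79.2% of control (-0.34, 1.26-fold lower). It ranked 732 from the lowest, with 6.14% of genes as low, and 7.86% of the 3879 genes within 2-fold of its level were. The 2 members that are not granule enzymes thus differed by more than each of the 4 enzymes.

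**Figure D2:**
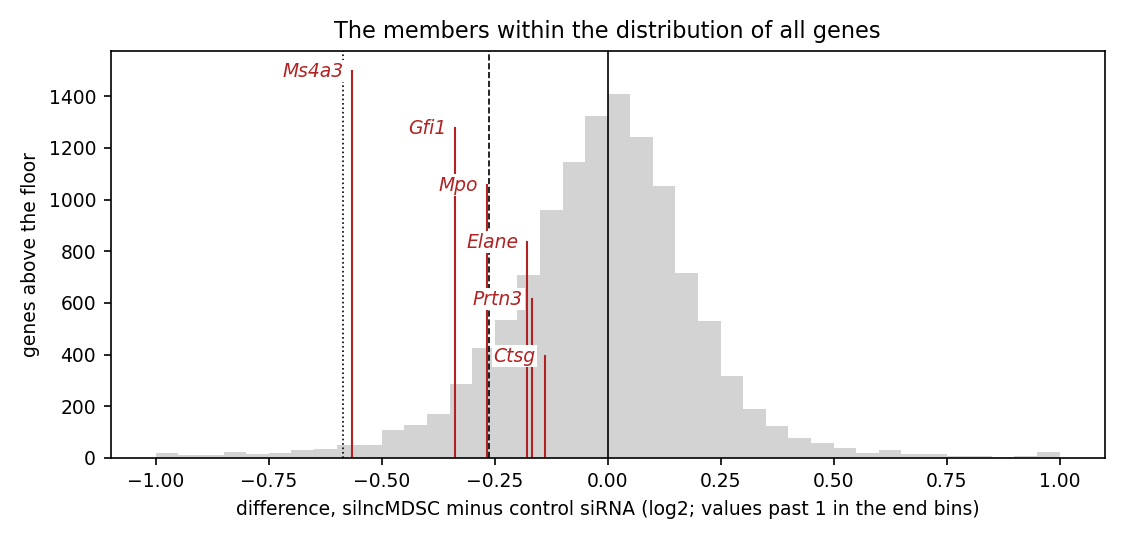
The histogram counts the 11920 genes above the floor (y axis) by their difference, silncMDSC minus control siRNA (x axis, log2), and red lines place the 6 members. The dashed line marks 1.2-fold lower and the dotted line 1.5-fold lower; Ms4a3 at -0.57 lies just inside the dotted line, Mpo at -0.27 just past the dashed one, and Elane, Prtn3 and Ctsg lie between -0.18 and -0.14.

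Other genes of the azurophil granule lay closer to control by their median, though single genes such as Gusb and Slpi differed by more than the serine proteases. Of 17 other genes for its cargo, sorting, activation and inhibitors, 14 had a probe set and passed the floor. Of these, 9 were lower and 5 higher, 0 passed 1.2-fold in either direction on their brightest probe set, and the median was -0.02. Over all genes above the floor, 50.7% were lower (58.0% of the brighter ones), 10.6% at least 1.2-fold lower and 6.96% at least 1.2-fold higher. Dimmer probe sets above the floor did pass 1.2-fold lower for Gusb (-0.39) and Canx (-0.28 and -0.27). Ctsc, which activates the granule serine proteases by trimming them, had 4097 in silncMDSC and 4413 in control siRNA (-0.11). Lyz2, lysozyme, had 7719.6 in silncMDSC and 8595 in control siRNA (-0.15), and the lysosomal glucuronidase Gusb had 1053 in silncMDSC and 1194 in control siRNA (-0.18). Srgn, serglycin, the proteoglycan that holds granule proteases, was nearly level at 8521 in silncMDSC and 8552 in control siRNA. The inhibitors of these proteases went apart, with Serpinb1a at -0.14 and Slpi, the secretory leukocyte protease inhibitor, at 0.23 (3818 in silncMDSC, 3254 in control siRNA). Fcnb, a ficolin of early neutrophils, had 811 in silncMDSC and 779.8 in control siRNA (0.06). Calr, a chaperone for the myeloperoxidase precursor, was at -0.15. No probe set is named here for Prss57, Bpi and Cd63.

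Transcription factors of these promoters differed little. Of 11, 10 were measured, 9 of them lower and 1 higher (50.7% of all genes lower, 58.0% of the brighter ones), with 0 past 1.2-fold and a median of -0.12, within the robust SD of 0.18. Cebpb had 3001 in silncMDSC and 3337 in control siRNA (-0.15), and its other probe set gave -0.23. Cebpa, the C/EBP factor that starts granulocyte development, had 362 in silncMDSC and 396 in control siRNA (-0.13), and Cebpd was at -0.13. Myb differed by -0.12 on its brightest probe set and by -0.23 and -0.19 on the others. Spi1, which encodes PU.1, was at -0.06 and Runx1 at -0.03. By brightest probe sets, Ikzf1, a lymphoid and myeloid zinc finger factor, was lowest at -0.23 (1315 in silncMDSC, 1539 in control siRNA). Sp1 was the member of the list that was higher (0.12), although another of its probe sets gave -0.27. Cebpe, which governs the step to secondary granules, has no probe set named here.

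Genes described as repressed by Gfi1 in mouse myeloid cells were split, with 4 of 8 measured genes higher, 4 lower and a median of -0.01. The shares over all genes above the floor were 49.3% higher and 50.7% lower. Csf1, the macrophage growth factor, was higher, at 791 in silncMDSC and 638 in control siRNA (0.31), with 0.17 to 0.24 on its other probe sets. Egr1, an immediate early factor, was 1.59-fold lower at 841 in silncMDSC and 1342 in control siRNA (-0.67). Irf8, which steers progenitors to monocytes, was level at 616 in silncMDSC and 597 in control siRNA (0.04).

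Genes of the stages before and after the promyelocyte went both ways, with cell division genes mostly higher and mature neutrophil genes mostly lower. Of all genes above the floor, 50.7% were lower, 10.6% at least 1.2-fold lower and 6.96% at least 1.2-fold higher. Of the brighter genes, 58.0% were lower. Of 9 measured progenitor genes, 5 were lower and 4 higher (median -0.01). Cd34, a marker of early progenitors, was higher at 159.9 in silncMDSC and 129 in control siRNA (0.31), as was the receptor Flt3 (0.34), whereas Sox4 was lower (-0.64) and Kit nearly level (-0.03). Of 11 cell division genes, 3 were lower and 8 higher, with a median of 0.05 and 0 past 1.2-fold. Mki67, which marks cycling cells, was at -0.08 and Ccnb2, a mitotic cyclin, at 0.26. Of 13 secondary and tertiary granule genes, 7 were lower and 6 higher (median -0.03). Ltf, lactoferrin, had 4755 in silncMDSC and 5408 in control siRNA (-0.19), Camp, cathelicidin, was at -0.08 and Ngp at 0.01, and the members past 1.2-fold, Lrg1 (0.38) and Padi4 (0.32), were higher. Of 11 mature neutrophil genes, 9 were lower and 2 higher (median -0.10), with the cytokine Il1b (-0.62) and the lectin Clec4d (-0.50) past 1.2-fold lower and the chemokine receptor Cxcr2 past it higher (0.44). No difference between these lists was tested, and the 3 neutrophil lists of secondary granule, mature and primary granule genes share no member.

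**Figure D3:**
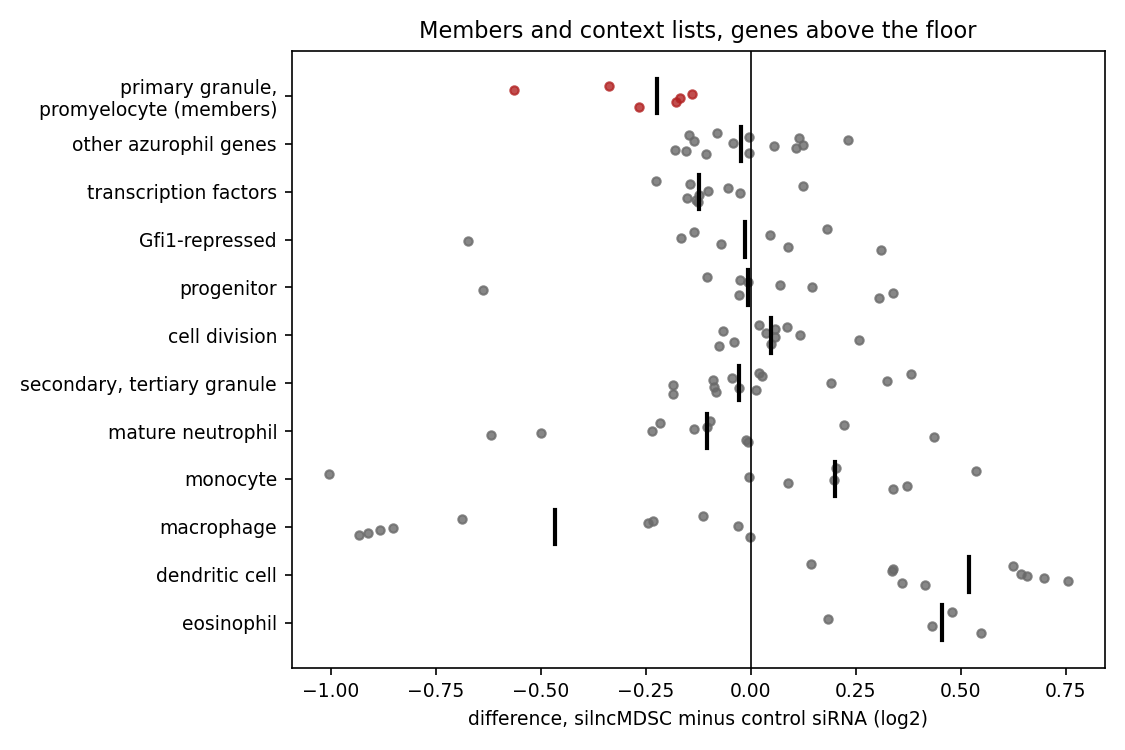
Each point is 1 gene above the floor, placed by its difference, silncMDSC minus control siRNA (x axis, log2), in 12 lists (rows), and the black bar is the median of the list. The 6 members (red, top row) all lie left of 0 with a median of -0.22, while the other azurophil genes (-0.02), secondary granule genes (-0.03) and cell division genes (0.05) straddle 0. Also left of 0 are all 10 macrophage genes (-0.47), 9 of 10 transcription factors (-0.12) and 9 of 11 mature neutrophil genes (-0.10). All 10 dendritic cell genes and all 4 eosinophil genes lie right of 0.

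Markers of some other cell types also differed between the cultures. Of all genes above the floor, 50.7% were lower and 49.3% higher, and 1.42% were at least 1.5-fold lower and 0.948% at least 1.5-fold higher. Macrophage genes were lower in 10 of 10, though Adgre1, which encodes F4/80, was level at 3068 in silncMDSC and 3070.1 in control siRNA and the complement gene C1qa was at -0.03, with 5 at least 1.5-fold lower (Mrc1, Msr1, Apoe, Maf and Mertk, from -0.93 to -0.69) and a summed intensity of 11800.0 in silncMDSC and 14769 in control siRNA. Such sums add probe sets of unlike brightness, so the brightest weigh most. Dendritic cell genes were higher in 10 of 10, with 5 at least 1.5-fold higher (H2-Eb1, Ciita, Itgax, Ccr7 and Batf3, from 0.62 to 0.75; summed 22673 in silncMDSC, 16696 in control siRNA). Eosinophil genes were higher in 4 of 4 above the floor (summed 4313 in silncMDSC, 3084 in control siRNA), among them the granule protein Prg2 (0.55), with the receptors Ccr3 and Il5ra below the floor on both arrays. Monocyte genes were higher in 6 of 8 (summed 11528 in silncMDSC, 10504 in control siRNA), with the proteoglycan Vcan at -1.01. Mast cell and basophil genes were higher in 6 of 7 (summed 6918 in silncMDSC, 6347 in control siRNA). Among these, Cpa3 was highest (0.48), while Mcpt8 (0.02), Ms4a2 (0.04) and Mcpt4 (0.06) were nearly level. Fcer1a was lower (-0.44). Lymphoid genes (5 of 9 higher, with the NK receptor Klrd1 at 0.91), stromal genes (2 of 3) and erythroid and megakaryocyte genes (3 of 6) were mixed, as all genes were, and among the last the platelet chemokines Pf4 (-0.43) and Ppbp (-0.62) were lower. No listed marker was at the lowest value of the scale. The part of these other cells in the lower levels of the members was not tested. Of the markers that define mouse MDSCs, Itgam, which encodes CD11b, had 2039.7 in silncMDSC and 2144 in control siRNA, and the probe set shared by Ly6c1 and Ly6c2 had 8671 in silncMDSC and 8777 in control siRNA. For Ly6g no probe set is named here.

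Ms4a3 belongs to a family whose genes lie together on chromosome 19, and most measured members of that family were lower in silncMDSC. Of 10 Ms4a genes above the floor, Ms4a3 included, 8 were lower and 2 higher, 7 were at least 1.2-fold lower (10.6% of all genes) and 3 at least 1.5-fold lower (1.42% of all genes), with a median of -0.53. Ms4a7, known from macrophages, had 783 in silncMDSC and 1455 in control siRNA (-0.89), and its other probe set gave -0.84. Ms4a6d had 1694 in silncMDSC and 2592 in control siRNA (-0.61), and Ms4a6b had 1380.2 in silncMDSC and 2066 in control siRNA (-0.58, and -0.87 on the other probe set). Ms4a6c (-0.50, but -0.13 on the other probe set) and Ms4a4c (-0.39) were lower too, and Ms4a8a had 75.1 in silncMDSC, below the floor, and 141 in control siRNA. Ms4a1, the B cell antigen CD20, was lower by less (-0.17), and the higher genes were Ms4a4b (0.25) and Ms4a2, the β chain of the mast cell and basophil IgE receptor (0.04, but -0.20 on its other probe set). Ms4a2 is the nearest protein-coding neighbour of Ms4a3 on 1 side, and Ms4a6d, the next one beyond it, was lower (-0.61). Ms4a paralogs resemble each other in sequence, and cross-hybridisation between their probe sets was not tested.

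**Figure D4:**
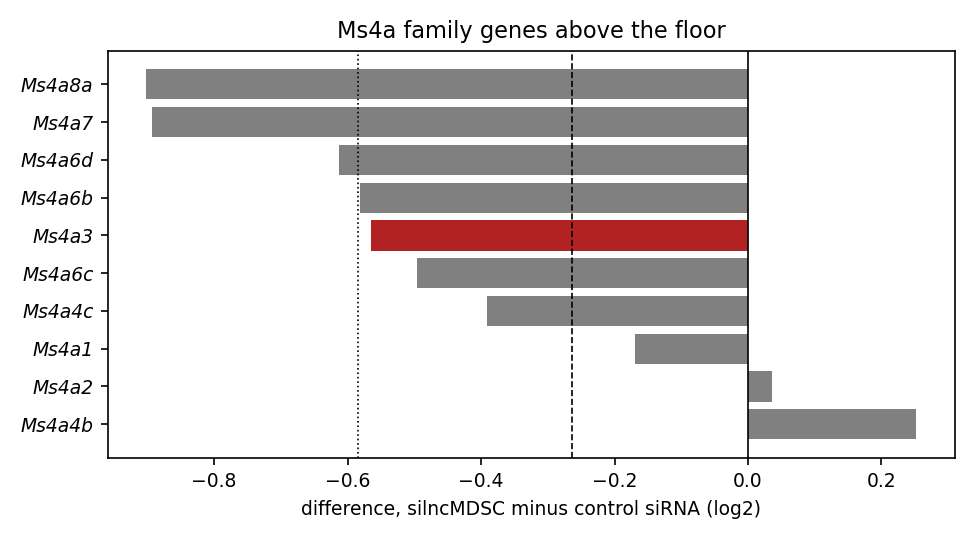
Bars show the difference, silncMDSC minus control siRNA (x axis, log2), of the 10 Ms4a genes above the floor (rows), with Ms4a3 in red, and dashed and dotted lines at 1.2-fold and 1.5-fold lower. Ms4a3 at -0.57 lies among its relatives, between Ms4a6b at -0.58 and Ms4a6c at -0.50.

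The granule enzyme loci were read from other sets of genes, so their counts cannot be set against those of the Ms4a family. On chromosome 10, Prtn3 and Elane sat among mixed neighbours, and of 7 listed genes of that stretch above the floor, both included, 4 were lower and 3 higher (median -0.06). Ptbp1, a splicing regulator, was at -0.24 and R3hdm4 at 0.18, and no probe set is named here for Cfd. On chromosome 14, Mcpt8, the basophil protease gene next to Ctsg, was level at 4082 in silncMDSC and 4030.1 in control siRNA (0.02), while 7 of the 11 other measured mast cell protease and granzyme genes of the cluster were below the floor. On chromosome 11, Epx, the eosinophil peroxidase gene that lies 3 protein-coding genes from its relative Mpo, was higher, with 529 in silncMDSC and 392 in control siRNA (0.43). Lpo, the lactoperoxidase gene between them, was just above the floor in silncMDSC (88.6) and just below it in control siRNA (78.0). Of all genes above the floor, 49.3% were higher. Mpo had 4 neighbours above the floor in at least 1 array within 5 protein-coding genes on either side, and all 4 were higher. They include Tspoap1, which is next to Mpo (518 in silncMDSC, 403 in control siRNA, 0.36), and Mtmr4 (782 in silncMDSC, 596 in control siRNA, 0.39). Lpo, Tspoap1 and Mtmr4 were named after their values were seen. Counted in the same way, 3 neighbours were higher and 5 lower for Elane, 3 higher and 4 lower for Prtn3, and 3 higher and 1 lower for Ctsg. Elane and Prtn3 share most of their neighbours, and each is itself counted as a lower neighbour of the other. For Ms4a3, 3 were higher and 3 lower, and for Gfi1, 1 was higher and 4 lower.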

How the data were processed

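The deposited data were 1 intensity per probe set and array. RMA is named in the submitters' processing notes without a version. It normally gives log2 values, but the deposited intensities were linear, from exactly 1 up to 13879.6 (silncMDSC) and 13983 (control siRNA). No source used here tells how they were brought to that scale. Scanner files were not used here. The labels give 6 µg of total RNA per labelling. Median intensities were 79.0 (silncMDSC) and 77.9 (control siRNA), and log2 values of the 11920 genes above the floor correlated with Pearson r = 0.988 across genes, which are not independent replicates. The number of arrays limits the precision. The methods name limma with a 2-fold threshold, which cannot be fitted to 1 array per group.

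After 64 control probe sets were set apart, 34945 probe sets had 1 symbol in the platform annotation, 932 several and 9160 none. Of those with 1 symbol, 34741 were found by Entrez identifier in a RefSeq gene table of GRCm38.p6, and 0 symbols needed updating. A gene was read from its brightest probe set. Genes were counted as lower at any size, at 1.2-fold and at 1.5-fold, on log2(intensity + 1), which slightly understates folds of dim genes. The 6 members and 19 context lists were chosen with earlier results of these data known. Named are all members, up to 4 genes of each list with the largest difference, any 1.5-fold apart, and other list genes where their role helps, chosen after their values were seen. Python 3.11.15, pandas 2.3.3 and statsmodels 0.14.6 were used. The procedure was tested on simulated data, which checked the recovery of planted differences and not the spread between real arrays. Alternatives were a pseudocount of 16, median centring, a loess trend removed (span 0.3), quantile normalization, no floor, a floor set at percentile 75, a floor for the mean over the arrays, the mean of probe sets, no cross-hybridising probe sets (_x_at, _s_at), folds of 1.1 and 1.5, and each member left out in turn.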

Additional observations from a re-analysis of the deposited data

How the results depend on the processing

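All 6 members were lower under the 4 other settings that could alter their values, namely a pseudocount of 16, median centring, a loess trend removed and quantile normalization. The other 5, on the floor and the choice of probe sets, could not alter them, since each member has 1 probe set well above the floor. Over those 4 and the values as deposited, the differences ran from -0.59 to -0.53 for Ms4a3, from -0.36 to -0.29 for Gfi1, from -0.29 to -0.23 for Mpo, from -0.20 to -0.15 for Elane, from -0.19 to -0.14 for Prtn3 and from -0.16 to -0.12 for Ctsg. The number at least 1.2-fold lower was 2 in place of 3 with the loess trend removed or the arrays quantile normalized again, since Mpo then fell short. The number at least 1.5-fold lower was 1 with the arrays centred on their medians, since Ms4a3 lies next to that mark. The median of -0.22 ran from -0.27 to -0.18, and the ends were reached by leaving out a single member. The share of all genes called lower was 23.8% at 1.1-fold and 1.42% at 1.5-fold, in place of 10.6% at 1.2-fold, which follows from the fold alone. With a change counted as any shift of 0.18 (the robust SD of all genes) or more, the medians of the stromal list and of the erythroid and megakaryocyte list also moved, and no member or list median past 1.2-fold changed its sign. Some smaller list medians did change sign, among them those of other azurophil genes (from -0.04 to 0.01) and secondary and tertiary granule genes (from -0.05 to 0.01). Single genes of the context lists were not run under the alternatives. No paired analysis was possible because each group holds 1 array. A single array per culture limits how far these sizes can be read.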
